A study of Mus musculus with 27 samples.

Results

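Chromatin accessibility around endogenous genes for cardiac transcription factors was examined in mouse cardiac fibroblasts given the reprogramming factors Gata4, Mef2c and Tbx5. The genes were Nkx2-5, Hand2, Hand1, Gata6, Tbx20 and Myocd, and the members were all counted regions that overlap 6 windows of the mm9 build, 1 window of 150 to 270 kb per gene. The windows held 33 of the 30815 counted regions, with 6 at Nkx2-5, 2 at Hand1, 7 at Gata6, 2 at Tbx20 and 16 at Myocd. No region of the table used here overlaps the Hand2 window, so Hand2 was not analysed here. Regions are numbered from low to high coordinate within each window. Whether a region lies in a promoter, an exon or an intron was not worked out, since no mm9 annotation was used, and a region's window name does not assign it to that gene.

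The cells were one immortalised line of neonatal cardiac fibroblasts with large T antigen, of strain Cd-1 and genotype alpha-MHC-GFP, in which a cardiac promoter drives a fluorescent reporter. They were analysed by ATAC-seq, which counts DNA cut by a transposase at accessible sites, on day 2 after retroviral infection and without sorting for infected cells. The control carried a dsRed retrovirus and had no chemical treatment. The 7 factor groups carried retroviruses for Gata4 (G), Mef2c (M), Tbx5 (T), Gata4 and Mef2c (GM), Gata4 and Tbx5 (GT), Mef2c and Tbx5 (MT) or all of them (GMT), and all 7 were also cultured with sb431542 and xav939, inhibitors of TGF-beta and Wnt signalling. In every comparison with the control, the factors and the inhibitors cannot be told apart, and comparisons among factor groups are matched for the inhibitors. Each group had 3 libraries that the labels call biological replicates without saying what separates them, so p-values measure the spread between these libraries. The labelled cell type was not checked against marker genes, because regions were not assigned to genes. In such unsorted bulk samples, fewer cells with an open region and less opening per cell cannot be told apart.

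Total counts ran from 241394 to 1704896 per library, with a median of 661976, and the 33 members together had 151 to 1397 counts in a library. Levels below are CPM, counts relative to a library's total after TMM scaling, not divided by region width, and 1 count was worth 0.635 to 4.01 CPM. Of the 24 libraries, 4 had a higher mean Spearman correlation with another group than with their own. The library labelled GT replicate 1 had 0.893 with G and 0.726 with GT. A chi-square of its counts per degree of freedom was 1.51, 2.77 and 4.62 against G replicates 1, 2 and 3. It was 7.84 and 4.27 against GT replicates 2 and 3, so G replicate 3 was no closer by this measure than GT replicate 3. This measure grows with depth, and these 2 libraries had 1544120 and 424913 counts. The Spearman correlation of GT replicate 1 was 0.913 with G replicate 3 and 0.722 with GT replicate 3. The others were GMT replicate 1 (0.772 with MT, 0.707 with GMT), G replicate 2 (0.823 with the control, 0.802 with G) and GM replicate 2 (0.815 with the control, 0.805 with GM). Most counts of calls and the values of some regions are also given without these libraries, an alternative chosen after seeing the data.

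In the embryonic heart these genes form, with Gata4, Mef2c and Tbx5, a network whose proteins bind shared enhancers and regulate one another's genes. Nkx2-5 is a homeodomain protein that partners with Gata4 and Tbx5. Hand1 and Hand2 are basic helix-loop-helix proteins needed for growth of the ventricles. Gata6 is a zinc-finger protein of the family of Gata4, and Tbx20 is a T-box protein of the family of Tbx5. Myocd (myocardin) is a coactivator of serum response factor in cardiac and smooth muscle. Forced expression of Gata4, Mef2c and Tbx5 is used to turn fibroblasts into cells like cardiomyocytes, in which endogenous cardiac regulators come to be expressed.

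The sequences of the regions were not read, because no mm9 genome was used here. RefSeq promoters of build GRCm38.p6 are shown instead for Nkx2-5, whose window holds regions that were higher with Tbx5, and for Tbx20, whose window holds no region called with all libraries. Both are the 250 bases before the gene's start, on the minus strand of chr17:26841566-26841815 and of chr9:24774304-24774553 in that build, and are printed 5′ to 3′ in the direction of the gene. Capitals would mark a match to a GATA motif (TGATAA or AGATAA), the core of a T-box site (AGGTGT) or the MEF2 consensus, on either strand, and no base is in capitals because none matched.
Nkx2-5 promoter: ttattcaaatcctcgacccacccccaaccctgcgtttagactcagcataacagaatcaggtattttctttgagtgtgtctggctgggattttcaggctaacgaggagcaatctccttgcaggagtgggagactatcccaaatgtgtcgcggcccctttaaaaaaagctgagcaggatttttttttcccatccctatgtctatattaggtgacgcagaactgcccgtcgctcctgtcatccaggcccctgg
Tbx20 promoter: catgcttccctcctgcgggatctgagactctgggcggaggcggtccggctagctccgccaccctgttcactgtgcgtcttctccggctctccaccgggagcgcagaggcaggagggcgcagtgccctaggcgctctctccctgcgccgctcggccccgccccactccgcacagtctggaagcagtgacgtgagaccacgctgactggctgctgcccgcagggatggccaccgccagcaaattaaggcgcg
Among 32851 RefSeq mouse promoter entries, 16.6% held the GATA motif, 11.8% the T-box core and 2.92% the MEF2 consensus. Neither promoter therefore carries these letters in this window, which says nothing of binding by the factors.

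Of the 33 members, 23 had enough counts to be tested and 10 did not. The tested members were 4 at Nkx2-5, 2 at Hand1, 5 at Gata6, 1 at Tbx20 and 11 at Myocd. Only 10 of the 23 reached the count minimum in all 3 control libraries. The others had at least 1 control library under it, so the level in 1 or more factor libraries helped them pass. For 5 of the 23, no group reached the minimum in all 3 libraries. For each comparison, counts of calls in the main fit, with all libraries, are set beside the share of all 20494 tested regions that was called. The median width of the 23 was 262 bp, against 261 bp for all tested regions, and 10 of the 23 reached the median of all tested regions in mean level. Regions were dense at Myocd, where 0.646% of 270 kb stretches of the genome held at least as many, with a median of 2 per stretch. That share was 7.53% at Nkx2-5, 8.98% at Gata6, 43.6% at Hand1 and 53.2% at Tbx20, for stretches as long as each window.

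The question across the loci was which regions differed with the factors given. Regions at Nkx2-5, Hand1, Gata6 and Myocd differed among the 7 factor groups, and the tested region at Tbx20 did not pass the test with all libraries. By edgeR's quasi-likelihood test with Benjamini-Hochberg adjustment over all regions, 18 of the 23 members had an adjusted p under 0.05, the threshold for every call below. This is 78.3% of them, against 56.9% of all tested regions and 72.7% of the 44 tested regions in flanks as long as the windows on each side. The 5 members not called were Nkx2-5 region 6, Gata6 region 3, Tbx20 region 1 and Myocd regions 2 and 4, and the last 2 were called against the control. Without the 4 libraries nearer another group, 22 of 25 members were called, among them Nkx2-5 region 6 (adjusted p = 0.00694), Tbx20 region 1 (0.0212) and Myocd region 4 (0.0415). Counts from this fit, here and below, stand without the share of all regions called in it. The same holds for every other alternative fit, with libraries left out or with another scaling, filter, model or test. A larger or smaller count in such a fit is therefore not read as a result about these loci. With all libraries, in any of the 14 comparisons made, 20 of the 23 were called, and the 3 called in none were Nkx2-5 region 6, Gata6 region 3 and Tbx20 region 1. The share of all tested regions called in any of the 14 was not worked out. It is at least the 56.9% called among the 7 factor groups, so the 20 are not read as a result about these loci.

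Adding Tbx5 to cells with other factors raised regions at 4 of the loci. Averaged over the 3 backgrounds (Gata4, Mef2c and both), 9 members rose and 2 fell, out of 23. Of all tested regions 26.2% were called here, 20.3% higher and 5.86% lower, and 43.2% of the flanking regions were called, so 47.8% of the members lies near the share of their flanks. Those that rose were Nkx2-5 regions 2 and 5, Hand1 region 2, Gata6 regions 5, 6 and 7 and Myocd regions 6, 13 and 15. Of these, Nkx2-5 region 2 and Gata6 regions 5 and 6 reached the count minimum in all 3 control libraries. The others did not, so their levels in factor libraries helped them pass the filter. Gata6 region 4 and Myocd region 3 fell. The median log2 fold change was 0.52 over the 23 members and -0.07 over all tested regions. Without GT replicate 1 alone, 12 members were called, 10 higher and 2 lower. Without all 4 libraries that were nearer another group, 25 members passed the filter and 15 were called, 11 higher and 4 lower. These add Nkx2-5 region 4 and 2 members not tested with all libraries (Gata6 region 1 and Myocd region 16) to the rises, and Myocd region 7 and Tbx20 region 1 to the falls, while Gata6 region 5 was no longer called.

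Adding Mef2c raised 8 members and lowered none, averaged over the backgrounds Gata4, Tbx5 and both. Of all tested regions 20.8% were called, 16.2% higher and 4.58% lower, against 34.8% of the members. The 8 were Nkx2-5 region 4, Gata6 region 7 and Myocd regions 4, 10, 11, 12, 13 and 15, so 6 of the 8 lie at Myocd. None of the 8 reached the count minimum in all 3 control libraries. Their levels in factor libraries helped them pass the filter, which favours rises over falls among them. Under the stricter filter (minimum count 20), the 1 member called was Myocd region 9, outside the 8 (log2 fold change 0.59, adjusted p = 0.0489 by edgeR's quasi-likelihood test). The median log2 fold change over the members was nevertheless -0.08, beside -0.05 over all tested regions. The count was 5 without GM replicate 1, without GMT replicate 3 or without T replicate 2, and 9 without the 4 libraries nearer another group. Of these 9, 8 were higher and 1 lower, the fall being at Nkx2-5 region 5 (log2 fold change -0.92, adjusted p = 0.048). With loess offsets, a scaling that follows the mean count, 4 members were higher and 1 lower.

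Adding Gata4 changed few members. Averaged over the backgrounds Mef2c, Tbx5 and both, Myocd region 7 rose and Hand1 region 1 and Myocd region 9 fell, 3 of 23 (13.0%) where 22.2% of all tested regions were called, 15% higher and 7.25% lower. With loess offsets 1 member was higher and 4 lower. The count was 5 without GMT replicate 2 or GT replicate 2, and 6 without the 4 libraries nearer another group, 3 higher and 3 lower.

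Whether the effect of an added factor differed with the factors already present was tested by an F test with 2 degrees of freedom. No member was called by edgeR's quasi-likelihood test for Gata4, Mef2c or Tbx5, where 0.00488%, 0% and 0.00488% of all tested regions were called. At an unadjusted p under 0.05 there were 1, 3 and 1 members, and DESeq2 also called 0 members in each, with no adjusted p for 11 of the members for Gata4. The averages over backgrounds therefore stand for effects whose differences between backgrounds were not detectable here.

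Set against the control, G had 3 called members, 2 higher and 1 lower, where 15.7% of all tested regions were called (9.61% higher, 6.07% lower). M also had 2 higher and 1 lower, beside 16.1% of all tested regions (9.67% higher, 6.47% lower). T had 6, 4 of them higher and 2 lower, beside 25.1% (14.5% higher, 10.6% lower). These counts are 13.0%, 13.0% and 26.1% of the members.

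GM had 1 called member, which was higher, beside 12.2% of all tested regions (8.5% higher, 3.75% lower). GT had 1 higher and 1 lower, beside 18.9% (13.1% higher, 5.81% lower). MT had 7 higher and 2 lower, beside 24.7% (17.5% higher, 7.2% lower), and GMT had 9 higher and 2 lower, beside 33.5% (23% higher, 10.5% lower). The counts in these 4 groups are 4.35%, 8.70%, 39.1% and 47.8% of the members. The share of members was below that of all tested regions for G, M, GM and GT and above it for T, MT and GMT. In the flanks 13.6% were called with G, 13.6% with M, 36.4% with T, 11.4% with GM, 31.8% with GT, 47.7% with MT and 50% with GMT, above the members' share in every group. These comparisons share the 3 control libraries. The map of log2 fold changes shows where along the loci the calls lie.

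**Figure D1:**
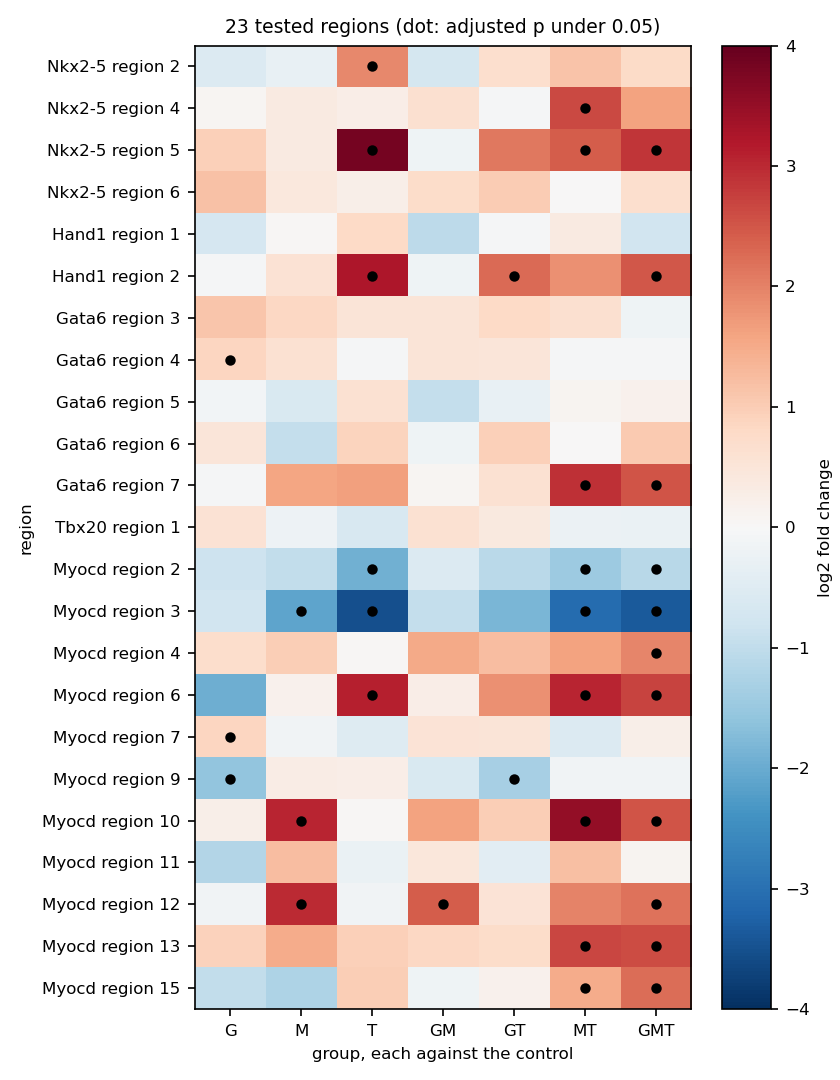
Log2 fold change of each of the 23 tested regions (rows, in order along each locus) in each factor group against the control (columns), from blue (lower) to red (higher), with a dot where the adjusted p was under 0.05. Dots gather in the T, MT and GMT columns (6, 9 and 11). The rows without a dot are Nkx2-5 region 6, Hand1 region 1, Gata6 regions 3, 5 and 6, Tbx20 region 1 and Myocd region 11.

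Several counts against the control rested on single libraries. With GMT the 11 calls became 5 without control replicate 3, 6 without GMT replicate 2 and 7 without GMT replicate 3. With MT the 9 became 5 without MT replicate 1, and with M the 3 became 0 without control replicate 3. With G the 3 became 1 without control replicate 2 or 3, G replicate 1 or 3, GM replicate 3, M replicate 1, 2 or 3 or MT replicate 2, and 6 without G replicate 2 and 5 without GT replicate 1. With GT the 2 became 0 without control replicate 3 or GT replicate 2, 1 without control replicate 2, 4 without G replicate 2, GM replicate 2, GT replicate 3 or T replicate 1, 2 or 3, and 5 without GMT replicate 1. With GM the single call became 0 without control replicate 2 or 3, GM replicate 1 or 3 or M replicate 2. It became 2 calls without G replicate 2, GMT replicate 1 or 2, GT replicate 1 or 3, M replicate 3, MT replicate 2 or 3 or T replicate 1, 2 or 3. Without the 4 libraries nearer another group, the counts were 7 with G (4 higher, 3 lower), 4 with M (2 and 2), 6 with T (4 and 2), 3 with GM (1 and 2), 6 with GT (3 and 3), 13 with MT (11 and 2) and 12 with GMT (10 and 2), out of 25 members tested.

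At Nkx2-5, the homeodomain gene whose protein acts with Gata4 and Tbx5, region 2 and region 5 were higher where Tbx5 was given. Bnip1 and Kifc5b are the protein-coding genes next to Nkx2-5 in the RefSeq order, and whether this window or the others reach into neighbouring genes was not worked out. Region 5 (chr17:27005741-27006147) had 4.45, 3.91 and 2.84 CPM in the control libraries and 96.7, 44.8 and 20.9 CPM in the T libraries. All T libraries lay above all control libraries, and the log2 fold change was 3.82 ± 0.76 (SE, adjusted p = 0.000382 by edgeR's quasi-likelihood test).

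With Gata4, Mef2c or both, region 5 of Nkx2-5 stayed near the control, at 8.16, 5.19 and 7.06 CPM in G, 5.01, 3.10 and 6.65 CPM in M and 3.29, 7.45 and 0 CPM in GM. These 3 groups overlap the control or lie just above it, and none was called. The level was 23.5, 18.5 and 16.5 CPM in MT (log2 fold change against the control 2.44 ± 0.79, adjusted p = 0.0224) and 4.01, 46.4 and 22.8 CPM in GMT (2.87 ± 0.78, adjusted p = 0.00536). The MT libraries did not overlap the control, whereas GMT replicate 1 lay within its range. The MT call was lost without control replicate 2 (adjusted p = 0.0703), control replicate 3 (0.118) or MT replicate 1 (0.103), and the GMT call without GMT replicate 2 (0.0844). Without the 4 libraries nearer another group the GMT value was 3.03 (adjusted p = 0.000109).

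The GT libraries had 1.26, 31.7 and 11.5 CPM at region 5 of Nkx2-5, and the group was not called. The library labelled GT replicate 1 was below the control, and the other two were above it. Without GT replicate 1 the log2 fold change of GT against the control was 2.66 (adjusted p = 0.0085). Adding Tbx5 raised region 5 by a mean log2 fold change of 2.09 ± 0.44 (adjusted p = 0.000399), from a mean of 5.10 to 19.6 CPM, and by 2.28 without GT replicate 1 (adjusted p = 1.22e-05).

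Region 2 of Nkx2-5 (chr17:26998395-26998819) was open in the control, with 24.5, 26.1 and 30.3 CPM, and had 123, 95.1 and 94.9 CPM in T. Each T library had more than the highest control library, with a log2 fold change of 1.93 ± 0.49 (adjusted p = 0.00371). The levels in G (8.16, 33.8 and 19.8 CPM), M (28.4, 23.8 and 13.3 CPM) and GM (9.21, 17.4 and 26.9 CPM) overlapped the control. The GT libraries had 10.1, 74.6 and 43.7 CPM, the MT libraries 76.2, 50.5 and 49.4 CPM and the GMT libraries 40.1, 68.4 and 28.7 CPM. All MT libraries lay above the control, while the library labelled GT replicate 1 lay below it and GMT replicate 3 within it, and these groups were not called against the control. With Tbx5 added, region 2 rose on average by 1.36 ± 0.30 on the log2 scale (adjusted p = 0.000641), from 20.1 to 49.1 CPM, and by 1.53 without GT replicate 1 (adjusted p = 1.31e-05). Without that library MT was also called against the control (log2 fold change 1.12, adjusted p = 0.0403).

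Region 4 of Nkx2-5 (chr17:27002249-27002449) rose on average with Mef2c added. It had 4.45, 0 and 5.67 CPM in the control and 26.7, 28.6 and 9.42 CPM in MT, groups that did not overlap (log2 fold change 2.65 ± 0.75, adjusted p = 0.0095). The MT call was lost without control replicate 2 (adjusted p = 0.0728), MT replicate 1 (0.0605) or MT replicate 2 (0.0511). Adding Mef2c raised region 4 by 1.54 ± 0.48 (adjusted p = 0.0194), a call lost without T replicate 2 (0.0562) or GM replicate 1 (0.0832), and without GT replicate 1 the effect of adding Tbx5 was also called (log2 fold change 1.25, adjusted p = 0.0329). Region 6 (chr17:27021840-27022199) had 17.8 to 20.8 CPM in the control and 49.8, 18.2 and 55.1 CPM in G. Its G replicate 2 lay within the control range and the other two G libraries above it, and the log2 fold change was 1.17 ± 0.43 (adjusted p = 0.0583). Without G replicate 2 and the 3 other libraries nearer another group it was 1.47 (adjusted p = 0.00314).

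At Hand1, region 2 (chr11:57661003-57661258) had a pattern over groups like that of Nkx2-5 region 5. The genes next to Hand1 are Sap30l and Larp1, and Hand1 encodes a helix-loop-helix protein of the ventricles. Region 2 had 11.1, 3.91 and 2.84 CPM in the control and 64.5, 61.0 and 24.7 CPM in T. The groups did not overlap, and the log2 fold change was 3.23 ± 0.68 (adjusted p = 0.000634 by edgeR's quasi-likelihood test). It was at 2.12 to 8.16 CPM in G, 5.01 to 13.3 CPM in M and 3.29 to 7.45 CPM in GM, all overlapping the control.

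In the combinations with Tbx5, region 2 of Hand1 had 3.79, 48.5 and 20.7 CPM in GT, 14.0, 23.6 and 21.2 CPM in MT and 16.1, 45.1 and 23.8 CPM in GMT. All of these libraries exceeded the control except GT replicate 1. Against the control the log2 fold change was 2.50 ± 0.69 in GMT (adjusted p = 0.00595), a call lost without control replicate 3 (0.0585) or GMT replicate 2 (0.0734). In GT it was 2.26 ± 0.69 (adjusted p = 0.0196), lost without control replicate 2 (0.0916), control replicate 3 (0.138) or GT replicate 2 (0.459). Without GT replicate 1 the GT value was 2.80 (adjusted p = 0.00125), and MT was called too (1.83, adjusted p = 0.023). Adding Tbx5 raised region 2 on average by 2.08 ± 0.39 (adjusted p = 0.000103), from 6.16 to 24.1 CPM, and by 2.27 without GT replicate 1 (adjusted p = 1.78e-06).

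Region 1 of Hand1 (chr11:57641078-57641281) fell with Gata4 added. It had 6.68, 15.6 and 19.9 CPM in the control, 17.6, 44.8 and 13.3 CPM in T and 7.89, 2.48 and 9.48 CPM in GM. No group was called against the control. The mean log2 fold change of adding Gata4 was -1.01 ± 0.30 (adjusted p = 0.0146), from 19.6 to 9.74 CPM, and it did not pass without T replicate 2 (-0.76, adjusted p = 0.0825), the library with the highest level.

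**Figure D2:**
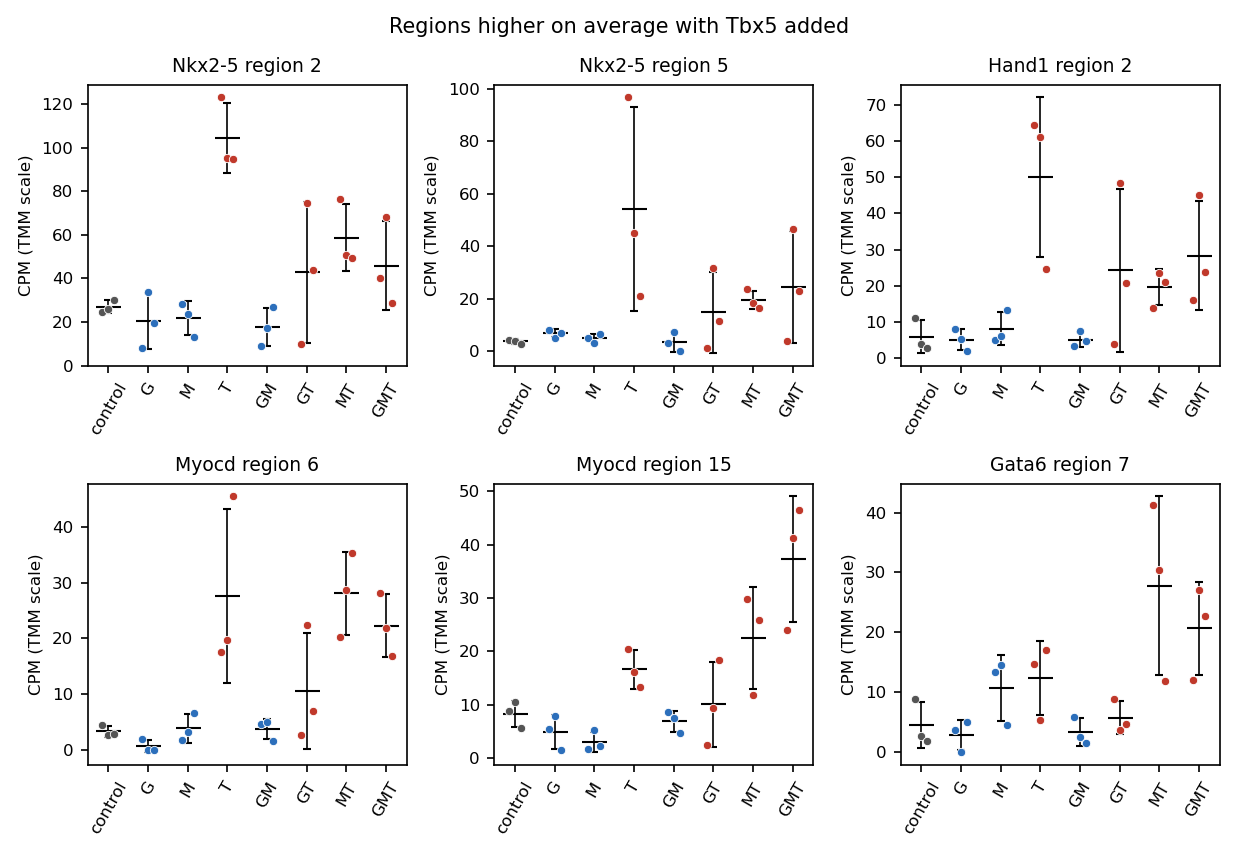
CPM on the TMM scale (vertical axes) in the 8 groups (horizontal axes) for 6 regions that were higher on average with Tbx5 added. Points are single libraries, grey in the control, red with and blue without Tbx5, and black marks are the mean ± SD of 3 libraries. At Nkx2-5 region 5 and Hand1 region 2 the T libraries reach 96.7 and 64.5 CPM, and in the GT group the library labelled replicate 1 sits at 1.26 and 3.79 CPM.

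In every panel except that of Gata6 region 7, the group means were higher with Tbx5 than without, and GT replicate 1 was a low point. At Gata6 region 7 the mean was 5.72 CPM in GT, below the 10.8 CPM of M. The panels also show that T varied more between its own libraries than the control did, from 20.9 to 96.7 CPM at Nkx2-5 region 5. At Myocd region 15 the highest levels were in GMT and at Gata6 region 7 in MT.

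At Gata6, whose zinc-finger protein belongs to the family of Gata4, calls went in different directions between regions of the same window. The genes next to Gata6 are Mib1 and Rbbp8. Region 7 (chr18:11144915-11145146) had 8.91, 2.61 and 1.89 CPM in the control, 41.3, 30.3 and 11.8 CPM in MT and 12.0, 27.1 and 22.8 CPM in GMT. Neither MT nor GMT overlapped the control. The log2 fold change was 2.92 ± 0.65 in MT (adjusted p = 0.00141 by edgeR's quasi-likelihood test) and 2.50 ± 0.67 in GMT (adjusted p = 0.00512), the second lost without control replicate 3 (0.0543).

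Single factors left Gata6 region 7 at 3.63, 0 and 4.94 CPM in G, 13.4, 14.5 and 4.44 CPM in M and 14.7, 5.38 and 17.1 CPM in T, all overlapping the control and not called. GM and GT were at 1.58 to 8.85 CPM. Adding Tbx5 raised it on average by 1.47 ± 0.38 (adjusted p = 0.00344), and adding Mef2c by 1.11 ± 0.39 (adjusted p = 0.0391). The Mef2c value was the less stable: it lost its call without any one of G replicates 1 and 2, M replicates 1 and 2, T replicates 1 and 2, GM replicate 1, GT replicates 2 and 3, MT replicates 1 and 2 and GMT replicates 2 and 3, with an adjusted p of 0.332 without GM replicate 1. Without GT replicate 1, adding Gata4 lowered region 7 (log2 fold change -1.14, adjusted p = 0.0346).

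Region 4 of Gata6 (chr18:11052848-11053162) was open in every library. It had 75.7, 107 and 111 CPM in the control and 207, 98.7 and 223 CPM in G. G replicate 2, a library nearer the control over all regions, lay within the control range and the other two above it. The log2 fold change was 0.86 ± 0.28 (adjusted p = 0.0348), and 1.14 without the 4 libraries nearer another group (adjusted p = 0.00247).

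The G call at Gata6 region 4 was lost without any one of control replicates 1 (adjusted p = 0.173), 2 (0.0857) and 3 (0.0722), G replicates 1 (0.166) and 3 (0.226), M replicates 1 to 3 (0.0579, 0.0547 and 0.0532), GM replicate 3 (0.0558), GT replicate 3 (0.0522) and MT replicate 2 (0.057). Levels were 172, 143 and 135 CPM in M and 166, 99.3 and 156 CPM in GM, against 85.0, 108 and 91.2 CPM in T and 128, 87.6 and 65.9 CPM in MT. Adding Tbx5 lowered region 4 by 0.52 on average on the log2 scale (-0.52 ± 0.17, adjusted p = 0.0172), from 156 to 109 CPM. That call was lost without G replicate 3 (0.0541).

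Regions 5 and 6 of Gata6 rose on average with Tbx5, by 0.53 ± 0.19 (adjusted p = 0.0362) and 0.88 ± 0.29 (adjusted p = 0.0208). Region 5 (chr18:11100819-11101113) had 73.5, 61.2 and 74.7 CPM in the control, 167, 66.4 and 89.3 CPM in T and 45.1, 50.7 and 39.9 CPM in M. Region 6 (chr18:11102684-11102938) had 22.3, 26.1 and 23.6 CPM in the control, 79.1, 30.5 and 28.5 CPM in T and 20.1, 7.24 and 11.1 CPM in M. In both regions M was below the control in every library, and with all libraries neither region was called in any group against it. Without the 4 libraries nearer another group, region 5 was lower in GM (log2 fold change -1.01, adjusted p = 0.0411) and region 6 higher in GMT (1.13, adjusted p = 0.0307). Region 5 had 42.7, 37.2 and 26.9 CPM in GM, below the control in every library, and its GM call was also made without GT replicate 1 alone (-0.96, adjusted p = 0.0497). The rise of region 6 with Tbx5 added lost its call without M replicate 2 (0.0796), GM replicate 3 (0.0684), MT replicate 1 (0.118) or GMT replicate 2 (0.11). The rise of region 5 with Tbx5 added lost its call without any 1 of control replicate 1, G replicates 1 to 3, M replicates 1 to 3, T replicates 1 and 3, GM replicates 2 and 3, GT replicates 2 and 3, MT replicates 1 to 3 and GMT replicate 2 (adjusted p from 0.0503 to 0.167). It was also not called without the 4 libraries nearer another group (0.0719).

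At Tbx20, a T-box gene next to Dpy19l2 and Herpud2, region 1 (chr9:24575713-24576084) was the tested member. It had 15.6, 24.8 and 18.9 CPM in the control, 35.3, 26.0 and 27.6 CPM in G, 23.4, 18.6 and 8.87 CPM in M and 17.6, 10.8 and 11.4 CPM in T. The combinations had 23.7, 29.8 and 39.5 CPM in GM, 48.0, 15.9 and 13.8 CPM in GT, 15.2, 11.8 and 25.9 CPM in MT and 24.1, 14.2 and 14.9 CPM in GMT. G lay just above the control, and in GT the library labelled replicate 1 alone was high. The log2 fold changes against the control were between -0.63 ± 0.52 in T (adjusted p = 0.411) and 0.60 ± 0.45 in GM (adjusted p = 0.434), and none was called. Adding Tbx5 gave -0.37 ± 0.27 (adjusted p = 0.331), and -0.81 without the 4 libraries nearer another group, which was called (adjusted p = 0.0136).

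At Myocd, the gene of the coactivator myocardin, the window held 11 tested regions, which moved in different directions along it. The genes next to Myocd are Arhgap44 and Map2k4. Regions 4, 6, 7, 10, 12, 13 and 15 rose in 1 or more groups against the control. Region 7 did so from a mean of 59.2 CPM in the control, and each of the others from a mean of 2.79 to 8.33 CPM. Regions 2 and 3, at the low-coordinate end, fell, and region 9 fell with Gata4. Regions 2, 3, 4, 11, 12 and 13 fall outside the rule for named regions and were chosen after their values were seen.

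**Figure D3:**
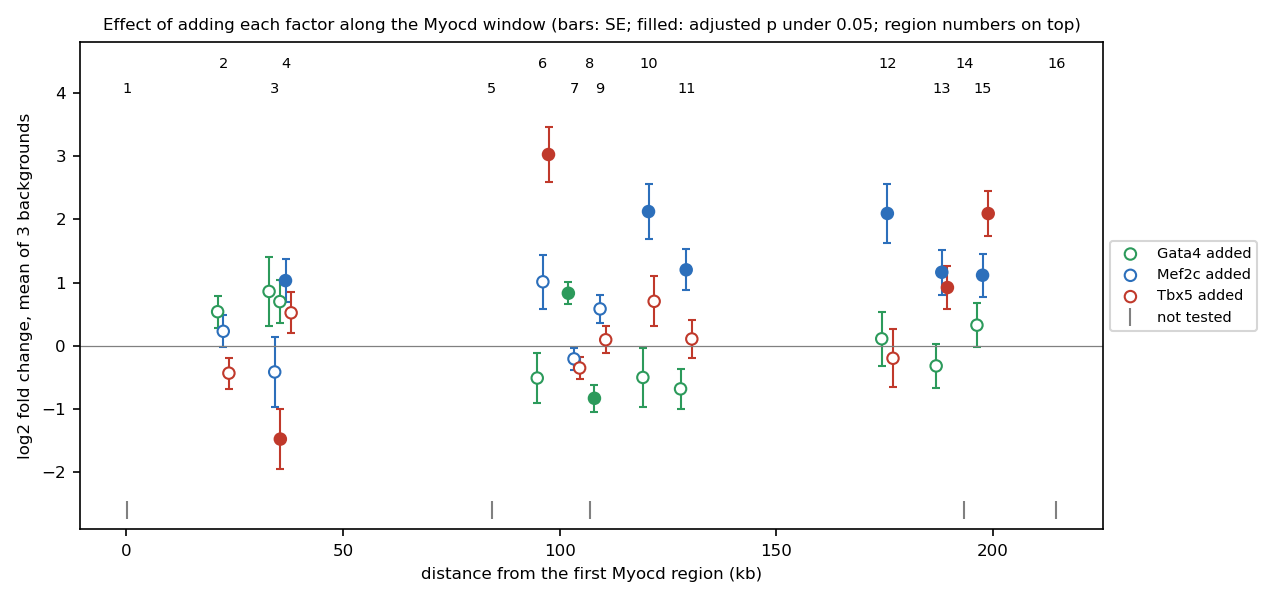
Mean log2 fold change with SE (vertical axis) when Gata4 (green), Mef2c (blue) or Tbx5 (red) was added, for the 11 tested Myocd regions by distance from the first region in kb (horizontal axis; points of a region are set side by side), with filled points at an adjusted p under 0.05 and grey ticks for the 5 regions not tested. The highest filled point is Tbx5 at region 6 (3.03), and all 6 filled Mef2c points lie above 0.

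Myocd region 6 (chr11:65015878-65016139) was higher in groups with Tbx5. The control had 4.45, 2.61 and 2.84 CPM, G 1.81, 0 and 0 CPM, M 1.67, 3.10 and 6.65 CPM and GM 4.60, 4.96 and 1.58 CPM. The level was 17.6, 19.7 and 45.6 CPM in T, 20.3, 28.6 and 35.3 CPM in MT and 28.1, 21.9 and 16.8 CPM in GMT. Every library of these 3 groups lay above every library of the control, G, M and GM.

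Against the control, the log2 fold change at Myocd region 6 was 3.11 ± 0.69 in T (adjusted p = 0.00114 by edgeR's quasi-likelihood test), 3.06 ± 0.68 in MT (0.00141) and 2.71 ± 0.70 in GMT (0.00398). GT had 2.53, 22.4 and 6.89 CPM and was not called, with the library labelled replicate 1 below the control and the other two above it. Without that library GT was called (2.32, adjusted p = 0.0154). Adding Tbx5 raised region 6 from a mean of 2.71 to 20.3 CPM, with a log2 fold change of 3.03 ± 0.43 (adjusted p = 2.08e-06). It was 3.19 without GT replicate 1 (adjusted p = 6.3e-08).

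Myocd region 15 (chr11:65117352-65117630) rose with both Tbx5 and Mef2c. It had 8.91, 10.4 and 5.67 CPM in the control, 1.67, 5.17 and 2.22 CPM in M, 20.5, 16.1 and 13.3 CPM in T and 24.1, 41.3 and 46.6 CPM in GMT. M was below and T and GMT above the control, without overlap, and of these GMT was called (log2 fold change 2.24 ± 0.54, adjusted p = 0.00218). In MT (29.9, 11.8 and 25.9 CPM) the value was 1.49 ± 0.55 (adjusted p = 0.045).

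The MT call at Myocd region 15 was lost without any 1 library except GT replicates 1 and 2, G replicate 3 and MT replicate 2, with an adjusted p of 0.262 without MT replicate 1, and with the replicate number as a block (0.0509). GT had 2.53, 9.32 and 18.4 CPM, and G and GM had 1.41 to 8.55 CPM. Adding Tbx5 raised the region by 2.09 ± 0.36 (adjusted p = 2.69e-05), from 4.94 to 23.3 CPM. Adding Mef2c raised it by 1.12 ± 0.34 (adjusted p = 0.0156), a call lost without G replicate 3 (0.0598), GM replicate 1 (0.0647) or MT replicate 1 (0.0501).

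Myocd regions 10 and 12 rose with Mef2c. Region 10 (chr11:65040263-65040520) had 2.23, 5.21 and 0.946 CPM in the control, 21.7, 31.0 and 15.5 CPM in M, 43.8, 37.1 and 11.8 CPM in MT and 0, 15.5 and 24.8 CPM in GMT. M and MT lay above the control in every library, and GMT replicate 1 was at 0. The log2 fold change was 3.05 ± 0.75 in M (adjusted p = 0.00452), 3.51 ± 0.73 in MT (0.000701) and 2.51 ± 0.77 in GMT (0.0127).

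At region 10 of Myocd the M call was lost without control replicate 3 (0.0579), and the GMT call without control replicate 3 (0.103) or GMT replicate 3 (0.14). T was at 1.90 to 3.59 CPM, G at 0.706 to 6.34 CPM, GM at 4.74 to 10.5 CPM and GT at 2.53 to 11.5 CPM. These 4 groups overlapped the control or lay close to it, and none was called. Adding Mef2c raised region 10 by 2.12 ± 0.44 on average (adjusted p = 0.000501), from 4.08 to 17.6 CPM.

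Region 12 of Myocd (chr11:65095402-65095631) had 6.68, 2.61 and 0 CPM in the control, 16.7, 24.8 and 17.7 CPM in M, 14.5, 4.96 and 19.0 CPM in GM and 12.0, 9.03 and 12.9 CPM in GMT. M and GMT did not overlap the control, and GM replicate 2 lay within it. MT had 4.71 to 13.5 CPM, overlapped the control and was not called with all libraries. Without the 4 libraries nearer another group MT was called (1.89, adjusted p = 0.0463). Against the control M had 2.99 ± 0.76 (adjusted p = 0.00608), lost without control replicate 3 (0.0725). GM had 2.42 ± 0.78 (0.0373), lost without control replicates 2 (0.115) or 3 (0.258), M replicate 2 (0.0512) or GM replicates 1 (0.145) or 3 (0.129).

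In GMT region 12 of Myocd had a log2 fold change of 2.17 ± 0.81 (adjusted p = 0.0382). This was lost without any one of control replicates 2 and 3, M replicates 1 to 3, GM replicate 3, MT replicate 2 and GMT replicates 1 to 3 (adjusted p from 0.0511 to 0.238). T was at 0 to 3.8 CPM and G at 0.906 to 5.19 CPM. Adding Mef2c raised region 12 by 2.10 ± 0.47 on average (adjusted p = 0.0011), from 2.98 to 11.2 CPM.

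Gata4 went with opposite directions at regions 7 and 9 of Myocd, both open in the control and separated by region 8 alone. Region 7 (chr11:65022894-65023489), the widest member at 596 bp, had 49.0, 58.6 and 70.0 CPM in the control and 121, 93.5 and 108 CPM in G. Region 9 (chr11:65029044-65029377) had 42.3, 57.3 and 70.0 CPM in the control and 15.4, 28.6 and 16.95 CPM in G. All G libraries lay above the control at region 7 and below it at region 9, with log2 fold changes of 0.85 ± 0.29 (adjusted p = 0.0397) and -1.59 ± 0.38 (adjusted p = 0.00477).

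The G call at Myocd region 7 was lost without any one of control replicates 1 to 3, G replicates 1 and 3, M replicates 1 to 3, T replicates 1 and 3, GM replicates 2 and 3, MT replicates 2 and 3 and GMT replicates 1 and 3 (adjusted p from 0.0508 to 0.176). It was also lost with the replicate number as a block (0.0509), while the call at region 9 was kept in each of these fits. Adding Gata4 to cells with other factors raised region 7 by 0.83 ± 0.17 (adjusted p = 0.000869), from 45.9 to 80.2 CPM. It lowered region 9, with a log2 fold change of -0.83 ± 0.21 (adjusted p = 0.00498), from 63.8 to 38.3 CPM. Without GT replicate 1 these values were 0.75 (adjusted p = 0.00301) and -0.75 (adjusted p = 0.0123).

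Among the combinations, region 7 of Myocd had 103, 74.5 and 83.7 CPM in GM, 115, 87.6 and 52.8 CPM in GT and 52.2, 81.3 and 72.4 CPM in GMT, against 41.9, 37.1 and 44.7 CPM in MT. Region 9 had 36.8, 42.2 and 34.7 CPM in GM, 15.2, 16.8 and 41.4 CPM in GT and 56.2, 54.2 and 47.6 CPM in GMT, against 62.9, 38.7 and 51.8 CPM in MT. At region 9 GMT overlapped MT, and GM lay below M, which had 86.9, 64.1 and 59.9 CPM. GT was called against the control at region 9 (-1.33 ± 0.38, adjusted p = 0.0137), and the call was lost without control replicate 3 (0.0941), GT replicate 1 (0.0589) or GT replicate 2 (0.0987).

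**Figure D4:**
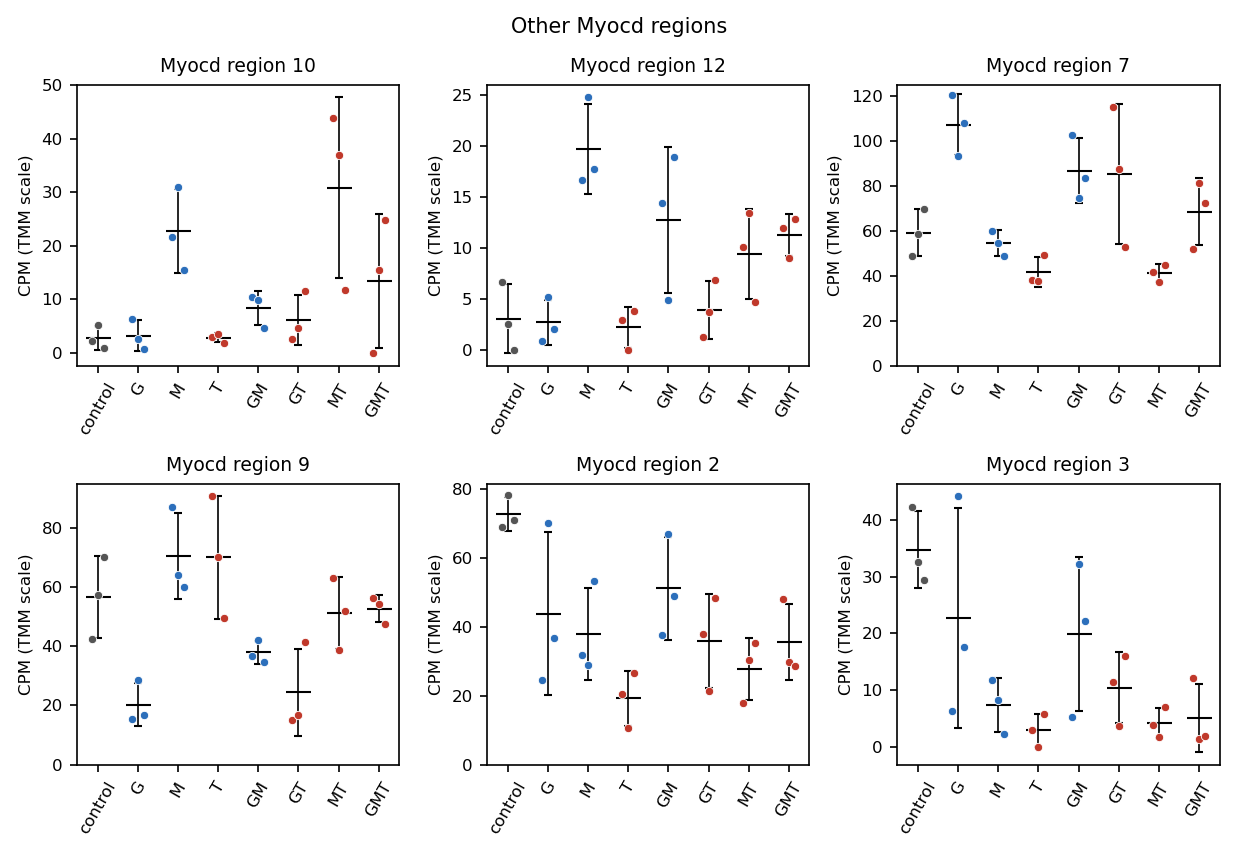
CPM on the TMM scale (vertical axes) in the 8 groups (horizontal axes) for 6 other Myocd regions. Points are single libraries, grey in the control, red with and blue without Tbx5, and black marks are the mean ± SD of 3 libraries. At regions 2 and 3 the T libraries reach at most 26.6 and 5.70 CPM, while the control libraries have at least 69.0 and 29.3 CPM.

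Myocd regions 2 and 3 were lower than the control in most factor groups, with calls at both in T, MT and GMT and at region 3 also in M. Region 2 (chr11:64942110-64942375) had 69.0, 78.2 and 70.9 CPM in the control, 20.5, 10.8 and 26.6 CPM in T, 17.8, 30.3 and 35.3 CPM in MT and 48.2, 29.7 and 28.7 CPM in GMT. None of these groups overlapped the control. The log2 fold change was -1.92 ± 0.45 in T (adjusted p = 0.00162), -1.45 ± 0.41 in MT (0.00967) and -1.11 ± 0.41 in GMT (0.0364).

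Groups without Tbx5 were also below the control at region 2 of Myocd, with 31.8, 29.0 and 53.2 CPM in M and 37.5, 67.0 and 49.0 CPM in GM, while G had 24.5, 70.1 and 36.7 CPM and GT 37.9, 21.4 and 48.3 CPM. M, GM and GT did not overlap the control, and none of these 4 groups was called. The MT call was lost without MT replicate 1 (0.0962), and the GMT call without control replicate 2 (0.0882), control replicate 3 (0.081), GMT replicate 2 (0.108) or GMT replicate 3 (0.152). Region 3 (chr11:64954013-64954218) had 42.3, 32.6 and 29.3 CPM in the control, 11.7, 8.27 and 2.22 CPM in M, 2.93, 0 and 5.70 CPM in T, 3.81, 1.68 and 7.06 CPM in MT and 12.0, 1.29 and 1.98 CPM in GMT. GT had 11.4, 3.73 and 16.1 CPM and was not called. All 5 of these groups lay below the control without overlap. The log2 fold change was -3.53 ± 0.87 in T (adjusted p = 0.00269), -3.08 ± 0.75 in MT (0.00301) and -3.35 ± 0.82 in GMT (0.00237).

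In M region 3 of Myocd had a log2 fold change of -2.12 ± 0.69 (adjusted p = 0.0313), lost without control replicates 1 (0.0637), 2 (0.0641) or 3 (0.061) or M replicates 2 (0.103) or 3 (0.108). The G libraries had 6.34, 44.1 and 17.7 CPM and the GM libraries 5.26, 32.3 and 22.1 CPM. In both groups replicate 2, which was nearer the control over all regions, had the highest level. Without the 4 such libraries region 3 was also called in G (-1.42, adjusted p = 0.0429), GM (-1.59, adjusted p = 0.0388) and GT (-2.14, adjusted p = 0.0117). Adding Tbx5 lowered it on average, with a log2 fold change of -1.48 ± 0.47 (adjusted p = 0.0185), and this was lost without GMT replicate 3 (0.0558). Region 2 was not called in any average over backgrounds. Without the 4 libraries it was also called against the control in G (-1.21, adjusted p = 0.0154), M (-1.05, adjusted p = 0.0261) and GT (-1.24, adjusted p = 0.0226).

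Regions 4, 11 and 13 were the remaining tested regions of Myocd. Region 13 (chr11:65107933-65108226) had 2.23, 5.21 and 3.78 CPM in the control, 30.5, 30.3 and 14.1 CPM in MT and 12.0, 23.2 and 33.7 CPM in GMT, without overlap. Its log2 fold change was 2.67 ± 0.62 in MT (adjusted p = 0.002) and 2.61 ± 0.63 in GMT (0.00214). Adding Mef2c raised it by 1.16 ± 0.35 (adjusted p = 0.0166), lost without T replicate 3 (0.0561) or GMT replicate 3 (0.0556). Adding Tbx5 raised it by 0.92 ± 0.34 (adjusted p = 0.0434), which was lost without any one of control replicates 1 and 2, G replicates 2 and 3, M replicates 2 and 3, T replicates 1 and 2, GM replicates 1 to 3, GT replicate 2, MT replicates 1 and 2 and GMT replicates 2 and 3 (adjusted p from 0.0514 to 0.223).

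Region 4 of Myocd (chr11:64956502-64956712) had 4.45, 5.21 and 4.73 CPM in the control and 8.03, 21.9 and 22.8 CPM in GMT. The groups did not overlap, and the log2 fold change of 1.96 ± 0.60 (adjusted p = 0.0126) was lost without control replicate 3 (0.0567), GMT replicate 2 (0.0647) or GMT replicate 3 (0.0694). Adding Mef2c raised it by 1.03 ± 0.34 (adjusted p = 0.0283), lost without any one of G replicate 1, T replicates 1 to 3, GM replicate 3, MT replicate 2 and GMT replicates 2 and 3 (adjusted p from 0.0507 to 0.108). Region 11 (chr11:65048976-65049196) had 16.7, 27.9 and 39.9 CPM in M against 11.1, 10.4 and 13.2 CPM in the control. M lay above the control without passing the test, and adding Mef2c raised region 11 by 1.20 ± 0.33 (adjusted p = 0.00699).

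Summed over all regions of a window, tested or not, the Nkx2-5 window had 55.9 ± 6.62 CPM in the control (SD, n = 3) and 196 ± 67.1 CPM in T. The Hand1 window had 20.0 ± 2.48 CPM in the control and 75.3 ± 34.4 CPM in T. At Myocd the sum was 284 ± 9.18 CPM in the control, 231 ± 25.6 CPM in T and 330 ± 36.4 CPM in GMT, so the regions that were higher and those that were lower in T partly offset one another. At Gata6 it was 221 ± 9.13 CPM in the control and 320 ± 82.1 CPM in G, and at Tbx20 22.1 ± 3.73 and 30.9 ± 5.70 CPM. These sums were not tested.

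The pattern of each locus' leading region over the 24 libraries was set beside those of all tested regions outside the windows, by Pearson correlation of log2 CPM. The libraries share groups and depth, so the values are descriptions. Most like Nkx2-5 region 5 were chr11:69034670-69034926 (0.944), chr7:19751383-19751609 (0.933) and chr8:122854962-122855606 (0.931), and among members Hand1 region 2 (0.886). Most like Hand1 region 2 were chr16:11503943-11504191 (0.950), chr10:67985052-67985398 (0.940) and chr2:154612424-154612989 (0.940). For both, regions outside the windows were closer in pattern than any other member. The outside regions were by far the larger set to pick from, so this does not tell whether members share a pattern.

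Most like Myocd region 6 were chr1:187551631-187551959 (0.927), chr2:84908500-84908784 (0.923) and chr9:94353660-94353873 (0.911), and among members Hand1 region 2 (0.815). For Gata6 region 7 they were chr7:51727579-51727848 (0.876), chr12:92551423-92551644 (0.872) and chr8:75111759-75112094 (0.860), and among members Myocd region 6 (0.644). For Tbx20 region 1 they were chr16:93446669-93446975 (0.867), chr3:9795704-9795917 (0.852) and chr2:92072167-92072367 (0.827). Members of the same window were not always alike, with -0.748 between Myocd regions 7 and 9 and -0.656 between Myocd regions 3 and 6. Over all pairs of members the second highest correlation was between Myocd regions 2 and 3 (0.824), and the highest joined different windows.

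The 10 members with too few counts to be tested were Nkx2-5 regions 1 and 3, Gata6 regions 1 and 2, Tbx20 region 2 and Myocd regions 1, 5, 8, 14 and 16. Their highest value in any library was 27.97 CPM, at Myocd region 16 in GT replicate 2. Nkx2-5 region 3 (chr17:27001370-27001697) had 2.23, 2.61 and 1.89 CPM in the control and 14.6, 5.05 and 11.8 CPM in MT, and the MT libraries lay above the control. In the fit without a filter, which tested all 33 members, region 3 of Nkx2-5 was the one of these 10 that was called, with Tbx5 added (log2 fold change 1.62, adjusted p = 0.0194). Without the 4 libraries nearer another group, Gata6 region 1 (0.93, adjusted p = 0.0482) and Myocd region 16 (1.39, adjusted p = 0.00785) passed the filter and were called with Tbx5 added. Tbx20 region 2 (chr9:24584257-24584497) had at most 6.94 CPM.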

How the data were processed

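Libraries were made from aliquots of 50000 cells with 12 PCR cycles and sequenced with 100 bp reads, per the labels' protocols. The authors deposited a table of raw read counts per region, not normalised. Per the submitters' processing notes, the tools were Bowtie2, Picard and featureCounts, without versions, on mm9. The definition of the regions, the removal of reads and the counting of reads or of fragments are not given in the sources used here. The table has columns for 24 of the 27 labelled samples, and 3 samples, dsRed with inhibitors, were not analysed here.

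Samples were grouped by their labels. Regions were filtered with filterByExpr (minimum count 10, minimum total 15), which kept 20494, scaled by TMM and fitted together over 8 groups by edgeR 4.0.16's quasi-likelihood test in R 4.3.3, with limma 3.58.1. The square root of the common dispersion was 0.294. P-values were adjusted by Benjamini-Hochberg over all tested regions within each of 14 comparisons: 7 with the control, 3 averages over backgrounds, 3 tests between backgrounds and 1 among the 7 factor groups. SEs of log2 fold changes were obtained by dividing their size by the root of F. Log2 CPM used a prior count of 2. The fit was tested on simulated data.

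The members and lists were chosen with earlier results of these data known. The rule for named regions takes, per locus, the 2 tested regions with the highest mean level and up to 5 called regions in the order of the p over all 8 groups, and the 3 regions outside the windows most similar to the first of these. Alternatives were no filter, a stricter filter (minimum count 20), scaling by RLE size factors, by total counts or by loess offsets (span 0.3), a minimum fold of 1.5 by glmTreat, fits of the compared groups alone, a replicate block, DESeq2 1.42.0, and leaving out libraries. Gene order comes from RefSeq of GRCm38.p6, where 6 of 6 symbols matched.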

Additional observations from a re-analysis of the deposited data

How the results depend on the processing

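Counts of called members that moved by over 1.5 times are given here. All counts in this section stand without the share of all regions called in the same setting. Whether the members moved more than all regions did is therefore not shown. With loess offsets the count was 0 for GM against the control (1 in the report), 5 for Gata4 added (1 higher, 4 lower, against 1 and 2) and 5 for Mef2c added (4 higher, 1 lower, against 8 and 0). With RLE size factors or loess offsets, GT against the control had 1 higher and 2 lower, against 1 and 1. Without a filter the count was 1 for G against the control. The stricter filter left 13 members to test and gave 0 for M, 0 for GM, 3 for MT and 4 for GMT against the control, 1 for Mef2c added, 7 for Tbx5 added and 9 for any difference among the factor groups. Requiring a minimum fold of 1.5 gave 1 for G, 0 for GM and 1 for GT against the control, 0 for Gata4 added, 2 for Mef2c added and 6 for Tbx5 added. With only the compared groups in the fit the count was 6 for M and 1 for GT, and DESeq2 gave 0 for GM. Leaving out the 4 libraries nearer another group, chosen after seeing the data, gave 7 for G, 3 for GM and 6 for GT against the control and 6 for Gata4 added. The cause of these moves was not tested, apart from the fewer members under the stricter filter. Total counts alone moved no count by over 1.5 times.

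Leaving out single libraries, or 1 replicate number of all groups, gave 0 to 6 for G, 0 to 3 for M, 5 to 7 for T, 0 to 2 for GM, 0 to 5 for GT, 5 to 12 for MT and 0 to 12 for GMT against the control. For the averages it gave 2 to 5 for Gata4 added, 3 to 8 for Mef2c added and 6 to 12 for Tbx5 added, and 11 to 19 for any difference among the factor groups. The tests between backgrounds stayed at 0. Of 75 calls of a member in a comparison, 27 were kept in all settings run, 41 when each single library was left out, and 0 reversed. No scaling moved the median log2 fold change of all regions by more than 0.0831.

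With the replicate number as a block, the counts were 2 for G, 3 for M, 6 for T, 1 for GM, 2 for GT, 10 for MT and 11 for GMT against the control, 4, 8 and 11 for Gata4, Mef2c and Tbx5 added, 0 in the tests between backgrounds and 18 for any difference. Of 84 same-numbered pairs of libraries, 24 had deviations correlated over 0.1, all 3 did in 2 of 28 pairs of groups, and a library correlated best with its own number in 61 of 168 cases. Depth limits the report most at the members near 1 count per library, where zero counts occur in the control.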
